A study of Mus musculus with 9 samples.

Results

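The genes described here are 10 activity-induced genes, Arc, Egr1, Egr2, Egr3, Egr4, Nr4a1, Nr4a2, Nr4a3, Npas4 and Ptgs2, followed through the hippocampus of young mice exposed to perfluorooctane sulfonate (PFOS), a persistent fluorinated surfactant. They were chosen by name from the 23412 gene symbols of the deposited expression table, with earlier results of these data known. Comparisons with all tested genes below are therefore descriptions. All 10 were in the table, and all 10 passed the filter on low values, which kept 14336 symbols with at least 1 TPM (transcript abundance per 1000000 transcripts, a level scaled for transcript length and for the library total) in at least 3 of the 9 libraries.

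The libraries fall into 3 groups of 3: pups exposed on postnatal days 8 to 14 (PFOS P8-14), pups exposed on days 1 to 7 (PFOS P1-7), and sham controls. All 3 groups were wild-type mice, and the hippocampus was taken on day 21. The interval between the end of the stated exposure window and collection was therefore shorter in P8-14 pups. Exposure was indirect, through milk, the dams having received PFOS by gavage at 1 mg/kg per day. The labels state no strain, sex, litter, batch or vehicle, nor that each library is a separate animal, so the p-values measure only the spread between these libraries, which may be technical. In bulk tissue, fewer cells of a type and less RNA per cell cannot be told apart.

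These genes are immediate early genes: they are transcribed within minutes of synaptic activity, without new protein synthesis. Calcium entry through NMDA receptors and voltage-gated channels, and the MAP kinase cascade, act on the factors CREB, SRF and MEF2 that are already bound near their start sites. The Egr genes encode zinc-finger transcription factors, the Nr4a genes encode orphan nuclear receptors, and Npas4 encodes a transcription factor induced mainly by calcium, while Arc and Ptgs2 encode effector proteins that act at the synapse and in lipid signalling. In the hippocampus they are the usual molecular markers of recently active neurons, and their levels follow the animal's last experience before tissue collection.

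CREB binds the cyclic AMP response element, of which the half-site is TGACG, or CGTCA on the other strand. The 250 bases before an annotated transcription start could be read from the RefSeq promoter table of GRCm38.p6 for 7 of the 10 genes. Of these genes, 6 held at least 2 half-sites in a window. The exception was Ptgs2, whose window held 0. Egr2 had several windows, some with 0 half-sites and some, overlapping each other, with 2. The count of 6 is by gene, whereas the shares that follow are by window. Of all 32851 windows in that table, 17.8% held at least 1 half-site, 3.90% at least 2 and 0.137% at least 4. The windows of the 3 Nr4a genes each held 4, and they are shown because the Nr4a genes include both the smallest p and the largest difference of the set in P1-7 against control. Both strands were searched, and overlapping matches were counted each. The half-sites stand in capitals, each line runs 5′ to 3′ on the gene's own strand, and a match of letters is a description, not a measured site. The windows are chr15:101266596-101266845 on the plus strand for Nr4a1, chr2:57124004-57124253 on the minus strand for Nr4a2 and chr4:48045055-48045304 on the plus strand for Nr4a3. The Nr4a1 window and most of the Nr4a3 window lie inside the gene spans given below, so each precedes an internal start.
Nr4a1: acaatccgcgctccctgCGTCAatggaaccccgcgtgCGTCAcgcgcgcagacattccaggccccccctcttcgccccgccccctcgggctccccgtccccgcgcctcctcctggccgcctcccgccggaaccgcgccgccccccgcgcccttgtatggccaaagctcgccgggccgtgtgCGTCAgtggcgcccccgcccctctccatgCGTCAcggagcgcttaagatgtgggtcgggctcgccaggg
Nr4a2: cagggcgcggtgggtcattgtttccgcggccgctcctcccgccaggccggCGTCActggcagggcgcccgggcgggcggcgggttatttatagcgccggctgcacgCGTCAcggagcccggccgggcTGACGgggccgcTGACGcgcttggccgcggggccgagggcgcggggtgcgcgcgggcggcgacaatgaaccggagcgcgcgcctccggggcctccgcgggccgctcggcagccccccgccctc
Nr4a3: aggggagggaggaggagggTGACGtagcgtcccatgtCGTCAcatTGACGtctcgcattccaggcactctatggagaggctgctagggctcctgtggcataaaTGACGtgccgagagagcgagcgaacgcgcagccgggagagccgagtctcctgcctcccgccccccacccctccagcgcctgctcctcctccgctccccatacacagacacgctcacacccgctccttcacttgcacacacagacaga
The Nr4a1 half-sites were all CGTCA, the nearest 36 bases from the start. In Nr4a2, 2 half-sites ran in each direction and the nearest lay 107 bases away. In Nr4a3, 3 were TGACG and 1 was CGTCA, the nearest 143 bases away.

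Some facts of the libraries bear on the values. Each column sums to 1000000, so sequencing depth is unknown. Markers of the hippocampus were present: all 10 dentate granule markers, 6 CA1 markers and 7 CA3 markers passed the filter. Ttr, the most abundant choroid plexus transcript, ranged between 35.1 and 11626 TPM and was high in P8-14 replicates 1 and 2, P1-7 replicates 1 and 3 and control replicate 3. Libraries also differed in how levels depended on transcript length. Spearman's rho between transcript length and a library's deviation from the gene's mean was 0.15, -0.15 and 0.23 in P8-14 libraries, 0.12, 0.36 and 0.13 in P1-7 libraries, and 0.15, -0.34 and -0.40 in control libraries. Control replicates 2 and 3 therefore stand apart from the rest, and results that they touch are also given without one or the other.

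The 10 genes covered a wide range of levels. Averaged over the 9 libraries, Egr1 was the most abundant at 118 TPM, followed by Arc at 89.7, Egr3 at 74.5, Nr4a1 at 57.6, Nr4a3 at 47.5, Egr4 at 28.98, Nr4a2 at 24.2, Ptgs2 at 14.6, Npas4 at 10.2 and Egr2 at 1.71 TPM. Neighbours in this order overlapped in their ranges over the 9 libraries, except Npas4 and Egr2. Within each library, Egr1 exceeded Arc, Nr4a2 exceeded Ptgs2 and Npas4 exceeded Egr2 in all 9. Egr1 lay above 88.5% of tested genes in mean level and Egr2 above 7.08%. Egr2 also had the widest relative spread, its highest library at 4.07 times its lowest, and Egr4 the narrowest at 1.38 times.

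**Figure D1:**
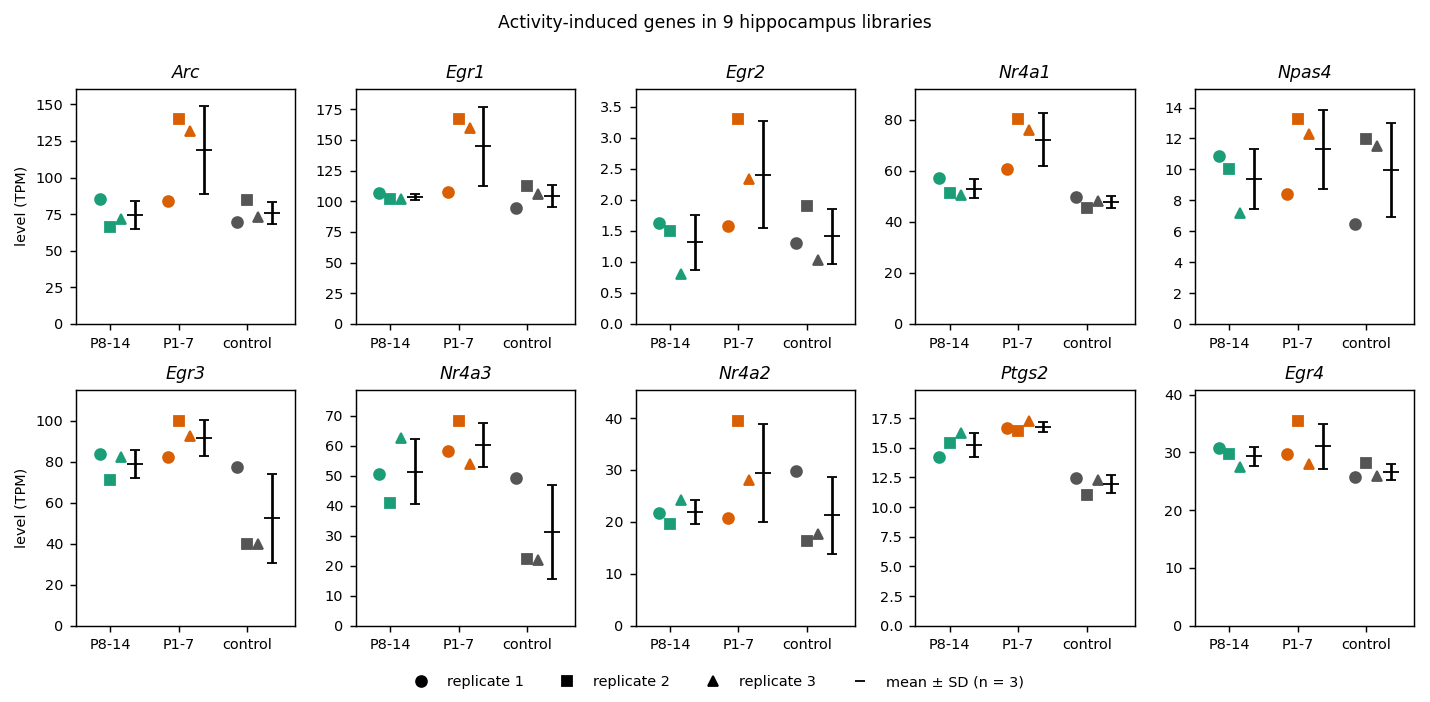
Level in TPM (axes start at 0) of each of the 10 genes in the 9 libraries, by group (P8-14, P1-7, control). Points are single libraries and the bars are the mean ± SD (n = 3). Arc and Egr1 stand highest in P1-7 replicates 2 and 3, while Egr3 and Nr4a3 stand lowest in control replicates 2 and 3.

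Egr1, the founding member of the Egr family and a regulator of long-term plasticity, read 106, 102 and 102 TPM in P8-14 libraries, 107, 167 and 159.9 TPM in P1-7 libraries, and 94.3, 113 and 106 TPM in controls. P1-7 replicates 2 and 3 were high and P1-7 replicate 1 lay among the controls. The group means were 104 ± 2.46, 145 ± 32.6 and 104 ± 9.30 TPM for P8-14, P1-7 and control (SD, n = 3 each).

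Egr3, required for muscle spindle development and studied in hippocampal plasticity, had 84.0, 71.3 and 82.2 TPM in P8-14 libraries, 82.5, 99.97 and 92.6 TPM in P1-7 libraries, and 77.6, 39.96 and 39.96 TPM in controls (chromosome 14, 70077317 to 70082613, GRCm38.p6). Here the control libraries were the ones that split: replicates 2 and 3 stood below every other library and replicate 1 lay within the P8-14 range. Egr4, a family member also needed for male fertility, ran at 30.7, 29.8 and 27.5 TPM in P8-14 libraries, 29.7, 35.4 and 27.9 TPM in P1-7 libraries, and 25.7, 28.1 and 25.97 TPM in controls, with overlap between all groups. Egr2, known for its roles in Schwann cell myelination and hindbrain patterning, stayed near the detection filter at 1.63, 1.5 and 0.81 TPM in P8-14 libraries, 1.58, 3.30 and 2.34 TPM in P1-7 libraries, and 1.31, 1.90 and 1.03 TPM in controls. P1-7 replicates 2 and 3 were the 2 highest, as for Egr1.

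Nr4a1, an orphan nuclear receptor that restrains dendritic spine density in active pyramidal neurons, had 57.3, 51.2 and 50.5 TPM in P8-14 libraries, 60.5, 80.2 and 76.0 TPM in P1-7 libraries, and 49.8, 45.3 and 48.0 TPM in controls (chromosome 15, 101253902 to 101274795). The 3 groups did not overlap: P1-7 lay above P8-14, and P8-14 lay just above control. Of all tested genes, 12.3% had every P1-7 library above every control, and 7.31% every P8-14 library above every control. In 4.15% every P8-14 library lay below every P1-7 library. The share separated in all 3 ways was not computed. Nr4a3, a family member also induced by learning (chromosome 4, 48045078 to 48086447), read 50.5, 40.8 and 62.6 TPM in P8-14 libraries, 58.1, 68.2 and 54.1 TPM in P1-7 libraries, and 49.3, 22.1 and 22.0 TPM in controls. It repeated the pattern of Egr3, with control replicates 2 and 3 low and control replicate 1 within the P8-14 range. Nr4a2, required for midbrain dopamine neurons and also for hippocampal memory, had 21.8, 19.6 and 24.3 TPM in P8-14 libraries, 20.8, 39.4 and 28.1 TPM in P1-7 libraries, and 29.8, 16.3 and 17.7 TPM in controls, with overlap throughout. P1-7 replicate 2 was its highest library and control replicate 1 its second.

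Npas4, a factor that adjusts inhibitory synapses on active neurons, read 10.9, 10.04 and 7.19 TPM in P8-14 libraries, 8.41, 13.2 and 12.3 TPM in P1-7 libraries, and 6.46, 11.96 and 11.5 TPM in controls. Control replicate 1 was its lowest library, whereas the same library was the highest control for Egr3, Nr4a1, Nr4a2, Nr4a3 and Ptgs2.

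Arc, a capsid-forming protein that promotes AMPA receptor endocytosis and whose mRNA travels to active dendrites, had 85.1, 66.5 and 71.95 TPM in P8-14 libraries, 84.2, 139.8 and 132 TPM in P1-7 libraries, and 69.9, 84.5 and 73.2 TPM in controls (chromosome 15, 74669081 to 74672570). P1-7 replicates 2 and 3 were high, and P1-7 replicate 1 lay below the highest control and the highest P8-14 library. Ptgs2, the inducible cyclooxygenase that starts prostaglandin synthesis in excitatory neurons, read 14.2, 15.4 and 16.2 TPM in P8-14 libraries, 16.6, 16.4 and 17.3 TPM in P1-7 libraries, and 12.4, 11.04 and 12.3 TPM in controls (chromosome 1, 150100031 to 150108234). Its 3 groups did not overlap, in the same order as Nr4a1 and beside the same shares of all tested genes.

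PFOS P1-7 was compared with control first, to ask whether exposure in the first postnatal week left a difference at day 21. All 10 genes had a positive difference in mean log2(TPM + 1), the scale of every difference below, which understates the change of genes at low levels such as Egr2. The same sign was seen in 65.5% of all tested genes. The median over the 10 was 0.47, against 0.09 over all tested genes. Nr4a3 had the largest difference, 1.03 (SE 0.28), followed by Egr3 at 0.86 (SE 0.22), Arc at 0.61 (SE 0.18) and Nr4a1 at 0.58 (SE 0.11). None passed limma's moderated test with Benjamini-Hochberg adjustment over all 14336 genes, where 0% were called at an adjusted p below 0.05. The adjusted p was 0.181 for Nr4a1 and Ptgs2, 0.182 for Egr3, 0.188 for Nr4a3, 0.204 for Arc and 0.216 for Egr1.

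At an unadjusted limma p below 0.05 the same 6 genes were higher in P1-7, namely Nr4a1, Ptgs2 (0.46, SE 0.09), Egr3, Nr4a3, Arc and Egr1 (0.45, SE 0.15). Of all tested genes, 12.5% were. In 4 of the 10, Egr3, Nr4a1, Nr4a3 and Ptgs2, every P1-7 library exceeded every control, against 12.3% of all tested genes. Egr2 (0.48, SE 0.24), Nr4a2 (0.45, SE 0.25), Egr4 (0.21, SE 0.10) and Npas4 (0.19, SE 0.24) lay within an interval that includes 0.

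Single libraries moved these calls, and so did limma's array weights, with which 7 of the 10 genes passed, as did 2914 of all 14336 tested genes. Without control replicate 1, 5 genes passed the adjusted threshold in limma, namely Egr3 (1.17, adjusted p = 0.00491), Nr4a3 (1.4, adjusted p = 0.00491), Nr4a1 (0.61, adjusted p = 0.0126), Ptgs2 (0.49, adjusted p = 0.014) and Nr4a2 (0.71, adjusted p = 0.0499), as did 2658 of all tested genes. Leaving out any other single library gave 0 of the 10. For Egr3 and Nr4a3, low in control replicates 2 and 3, the differences were 0.70 and 0.84 without replicate 2, and 0.70 and 0.83 without replicate 3. No fit left out both. The sign of Npas4 turned without control replicate 1 (-0.072). With the trends on transcript length and GC content removed from each library, Egr1 had a difference of 0.31 (95% confidence interval -0.11 to 0.73), while Arc (0.54), Egr3 (0.79), Nr4a1 (0.53), Nr4a3 (0.78) and Ptgs2 (0.33) had an unadjusted p below 0.05.

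**Figure D2:**
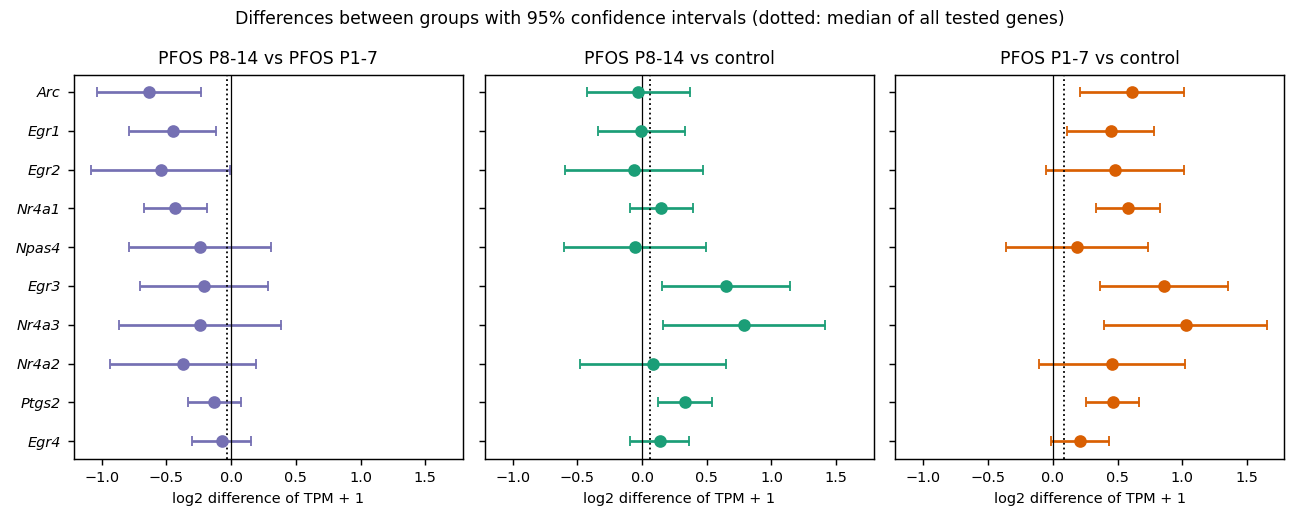
Difference in mean log2(TPM + 1) of each of the 10 genes in the 3 comparisons, with 95% confidence intervals from limma; the dotted line marks the median of all tested genes. In P1-7 against control all 10 points lie above 0, and in P8-14 against P1-7 all 10 lie below 0.

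Exposure on days 8 to 14 was compared with the same controls. Of the 10 genes, 6 were above and 4 below the control mean, and 62.1% of all tested genes were above. The median over the 10 was 0.11, against 0.06 over all tested genes. Arc (-0.028, SE 0.18), Egr1 (-0.0062, SE 0.15), Egr2 (-0.064, SE 0.24) and Npas4 (-0.057, SE 0.24) had means below control. The interval for Egr1 ran between -0.34 and 0.33, so a difference of that size either way is not excluded.

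None of the 10 passed limma's adjusted threshold in P8-14 against control, nor did any tested gene (0%). At an unadjusted limma p below 0.05, 3 genes were higher, Ptgs2 (0.33, SE 0.09), Egr3 (0.65, SE 0.22) and Nr4a3 (0.79, SE 0.28), against 6.33% of all tested genes. Every P8-14 library exceeded every control for 2 of the 10, Ptgs2 and Nr4a1 (0.15, SE 0.11), against 7.31% of all tested genes. Without control replicate 2, or without control replicate 3, Ptgs2 was the 1 gene at an unadjusted limma p below 0.05, with differences of 0.28 and 0.35. The differences then were 0.49 and 0.49 for Egr3, and 0.60 and 0.5963 for Nr4a3. Without control replicate 1, Egr3 (0.96), Nr4a3 (1.16) and Ptgs2 (0.36) passed the adjusted threshold, as did 1741 of all 14336 tested genes. That fit keeps only replicates 2 and 3 as controls.

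The 2 exposure windows were compared directly. All 10 genes had a lower mean in P8-14 than in P1-7, and 38.8% of all tested genes had a higher one. The median over the 10 was -0.31, against -0.03 over all tested genes. It was -0.145 without P1-7 replicate 2, where the sign of Egr4 turned (0.023), and -0.488 without P1-7 replicate 1. The difference itself uses no control library, but the fit pools the spread of all 3 groups, so the split between control replicates enters its SE. Fitted on these 2 groups alone, the SE was 0.097 for Egr3 and 0.15 for Nr4a3, against 0.22 and 0.28 in the pooled fit, and both intervals still include 0. Both comparisons with control and this one share libraries, and their values are therefore given side by side and not as separate evidence.

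Arc had the largest difference between the windows, -0.64 (SE 0.18), with Egr2 at -0.55 (SE 0.24), Egr1 at -0.45 (SE 0.15) and Nr4a1 at -0.43 (SE 0.11). These 4 were at an unadjusted limma p below 0.05, against 0.635% of all tested genes that were lower by the same rule, and limma's adjusted p was 1 for each (0% called). In 3 genes, Egr1, Nr4a1 and Ptgs2, every P8-14 library lay below every P1-7 library, against 4.15% of all tested genes. Without P1-7 replicate 2 the count at an unadjusted p below 0.05 was 2, Arc (-0.50) and Nr4a1 (-0.35). Egr3 (-0.21, SE 0.22), Nr4a3 (-0.24, SE 0.28), Npas4 (-0.24, SE 0.24), Nr4a2 (-0.37, SE 0.25), Ptgs2 (-0.13, SE 0.09) and Egr4 (-0.074, SE 0.10) had intervals that include 0.

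The order of the group means differed among the genes. For Arc they were 74.5 ± 9.55 TPM in P8-14, 119 ± 30.1 TPM in P1-7 and 75.9 ± 7.64 TPM in controls (SD, n = 3 each), and Egr1 and Egr2 likewise had P8-14 means close to control. Egr3, Nr4a3 and Ptgs2 had means above control in both exposed groups, 79.1 ± 6.88 and 91.7 ± 8.80 TPM against 52.5 ± 21.8 TPM for Egr3, and 15.3 ± 1.02 and 16.8 ± 0.448 TPM against 11.9 ± 0.757 TPM for Ptgs2 (P8-14, P1-7, control; SD, n = 3 each). For Nr4a1 they were 53.0 ± 3.77 TPM in P8-14, 72.2 ± 10.4 TPM in P1-7 and 47.7 ± 2.27 TPM in controls. Whether one gene's pattern differs from another's was not tested. In limma's moderated F test among the 3 groups the adjusted p was 0.362 for Nr4a1 and Ptgs2, the lowest of the 10, and 0.835 for Npas4, the highest, and 0 genes passed.

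Markers of hippocampal neurons were set beside these genes. The 10 dentate granule markers had a median difference of 0.26 in P1-7 against control, with 4 higher and 1 lower at an unadjusted limma p below 0.05, where 12.5% of all tested genes were higher and 5.79% lower. In P8-14 against control their median was 0.18, with 1 of 10 higher, where 6.33% of all tested genes were. Their summed level was 367 to 405 TPM in P8-14 libraries, 361 to 413 TPM in P1-7 libraries and 356 to 418 TPM in controls, and none was at 0. The 7 CA3 markers had a median difference of 0.23 in each comparison with control, with 3 of 7 higher in P1-7 and 2 of 7 higher in P8-14 at that p, beside the same 12.5% and 6.33%. They summed to 1139 to 1392 TPM in P8-14 libraries, 1218 to 1300 TPM in P1-7 libraries and 991 to 1137 TPM in controls. The 6 CA1 markers had medians of 0.13 in P8-14 and 0.068 in P1-7 against control, and the 8 interneuron markers had medians of 0.10 and 0.032, beside 0.06 and 0.09 over all tested genes. At that p, 2 CA1 markers were higher in each comparison and 1 was lower in P1-7, while 1 interneuron marker was higher in each and 1 was lower in P8-14. The part of these markers in the results was not tested. With choroid plexus markers as a covariate, the P1-7 differences were 0.67 for Arc, 0.50 for Egr1, 0.96 for Egr3, 0.60 for Nr4a1, 1.21 for Nr4a3 and 0.47 for Ptgs2. Without it they were 0.61, 0.45, 0.86, 0.58, 1.03 and 0.46 in that order. With the covariate, 0 of the 10 genes passed the adjusted threshold. The part of choroid plexus in the differences was not tested.

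Co-variation was measured across the 9 libraries for all 45 pairs of the 10 genes. Of the pairs, 42 had a positive Pearson's r, against 53.9% of all pairs of tested genes, and the median r was 0.59, against 0.054. An r of at least 0.8 was reached by 17.8% of the pairs, against 4.04% of all pairs of tested genes. All genes of a library share its scaling, its length trend and its group. After the group means were removed, the median r over the 45 pairs was 0.33.

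**Figure D3:**
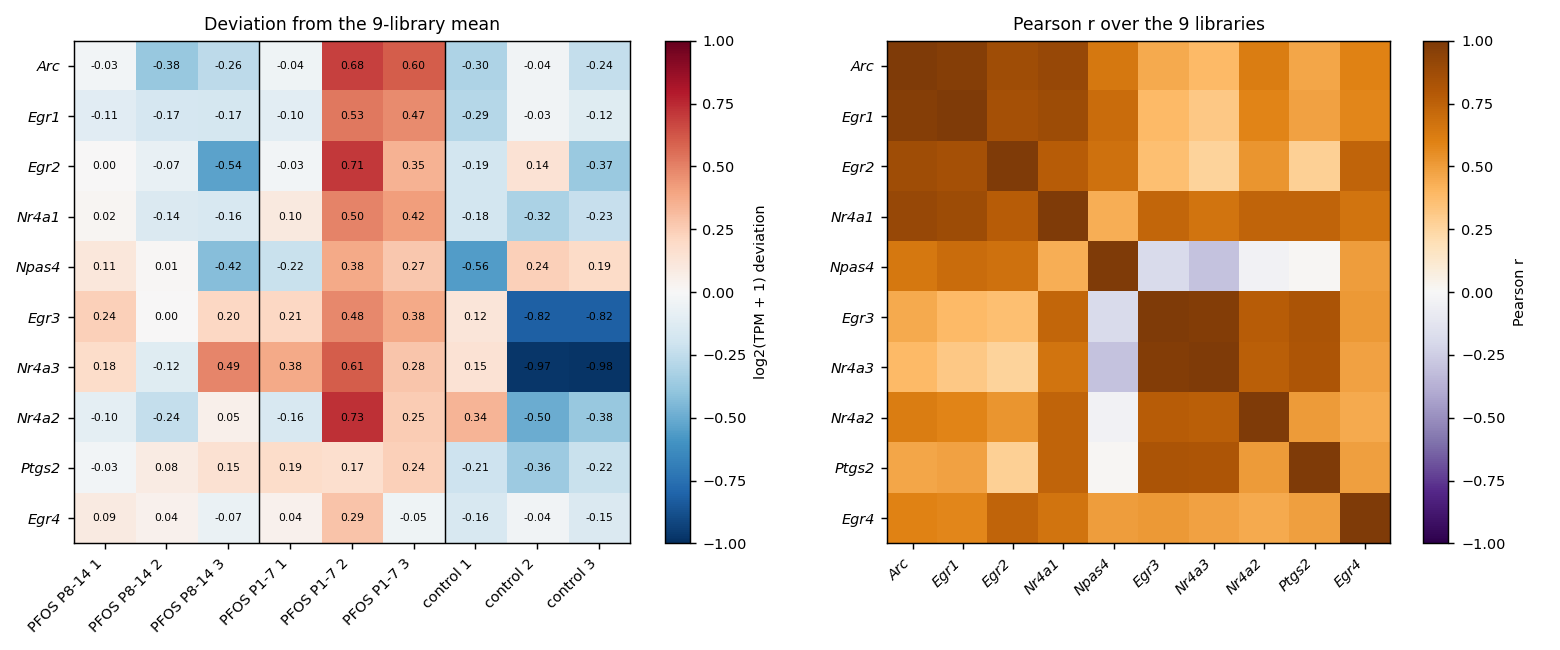
Left, deviation of each gene's log2(TPM + 1) from its mean over the 9 libraries, with libraries in columns by group; right, Pearson's r over the 9 libraries for each pair of genes (colour scales run between -1 and 1). P1-7 replicates 2 and 3 are high for Arc, Egr1, Egr2 and Nr4a1, control replicates 2 and 3 are low for Egr3 and Nr4a3, and the 3 negative pairs involve Npas4.

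In an exact permutation test over all 362880 orders of the libraries, 6 of the 45 pairs passed after Benjamini-Hochberg adjustment over the 45, namely Egr3 with Nr4a3, Arc with Egr1, Arc with Nr4a1, Arc with Egr2, Egr1 with Egr2 and Egr3 with Ptgs2. Each of these involves a gene whose libraries fall into separate clusters, P1-7 replicates 2 and 3 for Arc and Egr1, and control replicates 2 and 3 for Egr3 and Nr4a3, so no r over all 9 libraries is given for them. Among the other 7 libraries, Egr3 and Nr4a3 had r = 0.79 (exact permutation p = 0.0363) and rho = 0.68 (exact p = 0.11), and Arc and Egr1 had r = 0.73 (exact permutation p = 0.0389) and rho = 0.79 (exact p = 0.048). The adjusted value was 0.25 for each r. For each pair, the 2 libraries farthest from the median of its first gene, in the order of the opening list, were also left out. Libraries extreme for the second gene could stay in. By this rule 0 of the 45 pairs passed the adjusted exact test. Without P1-7 replicate 2, 0 of the 45 pairs passed and the median r was 0.38.

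Nr4a1 and Ptgs2 were also higher together. Without P1-7 replicates 2 and 3, which are the highest for Nr4a1 and stand apart there too, the other 7 libraries gave r = 0.74 (exact permutation p = 0.0635) and rho = 0.86 (exact permutation p = 0.0238), with an adjusted value of 0.305 for r. Once group means were removed, r over the 9 libraries was -0.081. Npas4 had the lowest r with the mean of the 10 genes, 0.45, and its pairs with Egr3, Nr4a2 and Nr4a3 were the 3 with a negative r over the 9 libraries. Without control replicates 2 and 3 the sign turned for Egr3, with r = 0.63 (exact permutation p = 0.132) and rho = 0.79 (exact p = 0.048), and for Nr4a3, with r = 0.14 (exact permutation p = 0.754) and rho = 0.32 (exact p = 0.498). With Egr1, Npas4 had r = 0.79 (exact permutation p = 0.0196, adjusted 0.214) and rho = 0.75 (exact p = 0.0663) in the 7 libraries without P1-7 replicates 2 and 3. For Nr4a2 with Npas4, r was -0.034 (exact permutation p = 0.932) and rho was 0.00 (exact permutation p = 1).

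The mean of the 10 standardised genes gives each library a score. It was 0.10, -0.24 and -0.30 in P8-14 libraries, 0.10, 1.51 and 0.90 in P1-7 libraries, and -0.53, -0.68 and -0.87 in controls. P1-7 replicates 2 and 3 stood highest, P1-7 replicate 1 stood level with P8-14 replicate 1, and all controls stood lowest. P1-7 replicate 3 was rich in the choroid plexus transcript Ttr and P1-7 replicate 2 was poor in it, at 10042 and 39.6 TPM.

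Outside the 10 genes, those whose levels followed this score most closely were named by rank of Pearson's r over the 9 libraries, as a description with no test. The 10 highest were Per3 (r = 0.98), Smek2 (0.97), Dcp1a (0.96), Uso1 (0.96), Dnajc14 (0.95), Dync1li2 (0.95), Ctcf (0.95), Plek (0.94), Ccar1 (0.94) and Brox (0.94). Per3 encodes a circadian period protein and Ctcf a chromatin insulator protein. Per3 had 19.4, 19.2 and 19.2 TPM in P8-14 libraries, 19.7, 22.8 and 22.1 TPM in P1-7 libraries, and 18.0, 17.9 and 16.9 TPM in controls, a narrow range in which the controls stood lowest. Of 10946 genes ranked, 2.80% had r of at least 0.8, so a close match to the score is not rare. These r include P1-7 replicates 2 and 3, which have the highest scores. Without the 2 libraries farthest from the median score, r ran between 0.63 for Ccar1 and 0.95 for Per3, with 0.77 for Ctcf. Of these 10 genes, 2 remained among the 10 highest with the length and GC trends removed, 2 without P1-7 replicate 2 and 2 without P8-14 replicate 3.

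Other genes of the pathway were followed as 5 lists, covering transcription factor partners and corepressors, other rapid immediate early genes, delayed activity-regulated effectors, signalling from synapse to nucleus, and prostaglandin synthesis and receptors. The lists held 111 symbols, some of them an old and a new name of the same gene. Of these, 107 were in the table and 105 were tested, and 0 passed limma's adjusted threshold in any comparison. At an unadjusted limma p below 0.05, 23 of 105 were higher and 2 lower in P1-7 against control, where 12.5% of all tested genes were higher and 5.79% lower. The lower ones were Tac1 and Map2k2. In P8-14 against control, 7 of 105 were higher and 4 lower, where 6.33% of all tested genes were higher and 4.65% lower, so both counts are near the background. The lower ones were Tac1, Map2k2, Ier2 (-0.34) and Rgs2 (-0.28). In P8-14 against P1-7, 0 of 105 were higher and 5 lower, where 0.467% of all tested genes were higher and 0.635% lower. The 5 were all rapid immediate early genes: Fos (-0.49), Trib1 (-0.36), Dusp6 (-0.30), Dusp5 (-0.29) and Junb (-0.28). Ier2, Rgs2 and these 5 are named after their values were seen.

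The 32 other rapid immediate early genes had a median difference of 0.16 in P1-7 against control, with 21 above and 11 below 0, a share near the 65.5% of all tested genes above 0. At an unadjusted limma p below 0.05, 8 of the 32 were higher, where 12.5% of all tested genes were. By the F test, Ppp1r15a, a regulatory subunit that returns phosphorylated eIF2 alpha to its active form, and Klf10, a zinc-finger factor induced by TGF-beta, led the list. Ppp1r15a averaged 24.6 ± 3.22 TPM in P8-14, 23.5 ± 2.55 TPM in P1-7 and 17.7 ± 0.329 TPM in controls (SD, n = 3 each). Klf10 averaged 26.7 ± 1.80 TPM in P8-14, 27.5 ± 1.86 TPM in P1-7 and 21.9 ± 1.17 TPM in controls. Both stood above control in both exposed groups, as Ptgs2 did.

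The 28 genes that carry activity to the nucleus had a median difference of 0.20 in P1-7 against control. Of these, 26 were above and 2 below 0. In P8-14 against control the median was 0.16, with 27 above and 1 below. Over all tested genes the medians were 0.09 and 0.06, with 65.5% and 62.1% above 0. At an unadjusted limma p below 0.05, 7 of the 28 were higher and 1 lower in P1-7. Of all tested genes, 12.5% were higher and 5.79% lower by that rule. In P8-14, 3 of the 28 were higher and 1 lower, where 6.33% of all tested genes were higher and 4.65% lower. Mef2a, a factor bound at activity-regulated enhancers, averaged 70.3 ± 9.89 TPM in P8-14, 77.4 ± 4.28 TPM in P1-7 and 41.1 ± 18.2 TPM in controls. Its control libraries read 62.2, 30.4 and 30.8 TPM, low in the same replicates 2 and 3 as Egr3 and Nr4a3. Map2k2, a MAP kinase kinase, averaged 64.3 ± 0.693 TPM in P8-14, 66.5 ± 4.33 TPM in P1-7 and 78.9 ± 9.46 TPM in controls.

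The 27 delayed effectors had a median difference of 0.10 in P1-7 against control, near the 0.09 of all tested genes. At an unadjusted limma p below 0.05, 7 of the 27 were higher and 1 was lower, where 12.5% of all tested genes were higher and 5.79% lower. Inhba, an activin subunit induced by synaptic activity, averaged 2.96 ± 0.75 TPM in P8-14, 3.72 ± 0.984 TPM in P1-7 and 1.83 ± 0.633 TPM in controls. Tac1, the precursor of substance P, averaged 13.6 ± 1.49 TPM in P8-14, 11.4 ± 3.58 TPM in P1-7 and 18.95 ± 2.29 TPM in controls, the opposite direction.

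The 11 tested prostaglandin genes had a median difference of 0.09 in P1-7 against control, with 6 above and 5 below 0, beside 0.46 for Ptgs2 itself. Abcc4, a transporter that exports prostaglandins, averaged 7.00 ± 0.742 TPM in P8-14, 7.14 ± 1.06 TPM in P1-7 and 4.75 ± 0.993 TPM in controls. It was the 1 gene of the 11 at an unadjusted limma p below 0.05 in each comparison with control. Of all tested genes, 12.5% were higher at that p in P1-7 and 6.33% in P8-14. Ptges2, a prostaglandin E synthase, averaged 38.3 ± 0.773 TPM in P8-14, 37.1 ± 2.54 TPM in P1-7 and 42.0 ± 2.68 TPM in controls. The 7 partners and corepressors had 0 genes at that p in any comparison. Rxrb, a retinoid X receptor and dimer partner of Nr4a1 and Nr4a2, averaged 69.6 ± 4.44 TPM in P8-14, 70.9 ± 1.83 TPM in P1-7 and 77.2 ± 0.716 TPM in controls. Rxrg, its relative, averaged 3.04 ± 0.944 TPM in P8-14, 2.25 ± 0.677 TPM in P1-7 and 3.52 ± 0.534 TPM in controls.

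**Figure D4:**
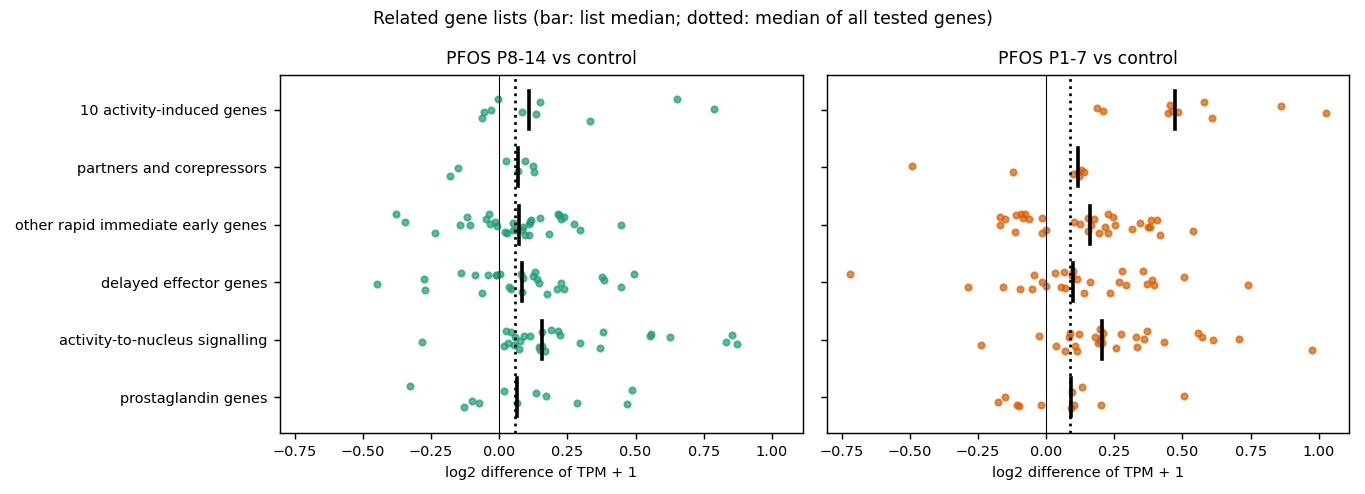
Difference in mean log2(TPM + 1) of each tested gene in the 10 activity-induced genes and the 5 related lists, for P8-14 against control (left) and P1-7 against control (right). Bars are list medians and the dotted line is the median of all tested genes; in P1-7 the bar of the 10 genes stands at 0.47 and those of the other lists between 0.09 and 0.20.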

How the data were processed

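Hippocampal RNA of 9 mouse libraries was sequenced after poly(A) selection with a stranded kit, per the labels' protocols. The authors deposited TPM per gene symbol with 2 decimals. The submitters' processing notes name STAR 2.5.3a, RSEM 1.3.3, the read trimmer fastp 0.21.0 and build mm10. No annotation is named. Because TPM carry no read totals, depth is unknown and counting error was not computed.

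From the deposited TPM, log2(TPM + 1) was analysed with limma 3.58.1 in R 4.3.3, in 1 model of the 3 groups with a mean-variance trend. Tests were two-sided, over 14336 symbols with 1 TPM or more in at least 3 libraries. P-values were adjusted by Benjamini-Hochberg over all of them, with a threshold of 0.05. The scripts were tested on simulated data. Identical values were shared by 0.14% to 0.356% of tested genes between any pair of libraries, so none was treated as a duplicate.

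Pairs of genes were tested by exact permutation. Length and GC trends were removed per library by loess (span 0.3), with transcript lengths for 93.9% of tested symbols. The members and lists were chosen with earlier results of these data known. Named genes were the 10 members, the 2 of each related list with the smallest F-test p, and the 10 genes most like the members' mean pattern.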

Additional observations from a re-analysis of the deposited data

How the results depend on the processing

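With 3 libraries a group and unknown depth, a log2 difference had a median SE of 0.20 among the 10 genes and 0.13 among all tested genes, which limits what the adjusted test can call. Array weights gave 7 of the 10 genes and 2914 of all tested genes in P1-7 against control, and 3 and 1053 in P8-14 against control, all by adjusted limma p. Leaving out each library in turn gave 0 to 5 of the 10 and 0 to 2658 of all in P1-7 against control, 0 to 3 and 0 to 1741 in P8-14 against control, and 0 and 0 in P8-14 against P1-7. The high counts came without control replicate 1. Removing the length and GC trends without control replicate 1, an alternative chosen after seeing the data, gave 4 and 1217, then 2 and 923. The other alternatives gave 0 calls. At an unadjusted p below 0.05, the leave-one-out ranges were 5 to 8, 1 to 3 and 2 to 5 of the 10 for P1-7 against control, P8-14 against control and P8-14 against P1-7. Among all genes that p gave 1797 higher and 830 lower in P1-7 against control, but 1031 and 1417 with median-of-ratios scaling, 1043 and 1329 with quantile normalization, and 849 and 1175 with the length and GC trends removed. In P8-14 against control the splits were 907 and 666, then 605 and 1004, 654 and 986, and 592 and 997. Of the member pairs, 3 passed with median-of-ratios scaling, 2 with quantile normalization and 0 to 8 with each library left out. In every case the cause was not tested.

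Some small differences changed sign. In P1-7 against control, Npas4 was -0.26 with trends removed and without control replicate 1, and -0.072 to 0.37 over left-out libraries. In P8-14 against control, Arc was 0.032 and Egr1 was 0.041 with the choroid plexus covariate, Nr4a2 was -0.039 with trends removed, and Egr4 was -0.00695 with trends removed and without control replicate 1. Over left-out libraries in that comparison, Arc ranged between -0.13 and 0.051, Egr1 between -0.076 and 0.051, Egr2 between -0.18 and 0.10, Npas4 between -0.31 and 0.10, Nr4a2 between -0.075 and 0.34, Rxrg between -0.30 and 0.028, Fos between -0.046 and 0.16 and Trib1 between -0.058 and 0.087. Fos was -0.000901 with median-of-ratios scaling, -0.025 with quantile normalization, -0.031 with array weights, -0.017 with trends removed and -0.11 with trends removed and without control replicate 1. Trib1 was -0.020, -0.052, -0.001184 (choroid plexus covariate), -0.096 and -0.12 under median-of-ratios scaling, quantile normalization, that covariate and both trend removals. In P8-14 against P1-7, Abcc4 was 0.0019 with median-of-ratios scaling, 0.013 with quantile normalization and 0.032 with trends removed, with or without control replicate 1. Over left-out libraries there, Abcc4 ranged between -0.13 and 0.057, Egr4 between -0.14 and 0.023, Klf10 between -0.095 and 0.016, Ppp1r15a between -0.037 and 0.13, Ptges2 between -0.0088 and 0.0798 and Rxrb between -0.077 and 0.012.

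With the replicate block, 8 of the 10 genes had an unadjusted p below 0.05 in P1-7 against control, 3 in P8-14 against control and 4 in P8-14 against P1-7, and 0 genes passed after adjustment. Same-numbered libraries had correlations of deviations between -0.467 and 0.53, and differently numbered ones between -0.599 and 0.666. The labels do not say whether the numbers pair the libraries, and these overlapping ranges cannot settle it.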

Other observations

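Egr3 and Nr4a3 belong to a wider set of genes that read low in control replicates 2 and 3. These libraries have the lowest rho between level and transcript length. Among 11470 genes with a mean of at least 5 TPM, 224 (1.95%) were lower in both of these libraries than in each of the other 7 by a factor of at least 1.4, and 30 (0.262%) were higher by that factor. Where a transcript length was matched, the median was 3946 bases for 216 of the 224, 562 bases for 24 of the 30 and 2199 bases for 10831 of the 11470. Because these libraries were picked for their low rho, long genes reading low and short genes reading high follow in part from that choice. The lengths of Egr3 and Nr4a3 themselves were 2724.5 and 5394 bases. The pattern was noticed after the values were seen, and its part in the differences of Egr3 and Nr4a3 was not tested. With length and GC trends removed, Egr3 and Nr4a3 had differences of 0.79 and 0.78 in P1-7 against control. Those fits remove a library's average trend, not a gene's own departure from it, so they cannot settle that part.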
